A study of Mus musculus with 12 samples.

Results

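The 10 astrocyte genes described here were measured in cultures of mouse neurons: Gfap, Aqp4, Aldh1l1, S100b, Slc1a2, Gja1, Aldoc, Sox9, Apoe and Glul. They were chosen by name, as genes widely used to mark astrocytes, and matched by symbol to the Ensembl identifiers of the deposited tables. The 10 genes were found among 33560 genes with counts, and all 10 were among the 15443 genes abundant enough to be tested. Their levels were measured by sequencing of polyadenylated RNA in 12 libraries of glutamatergic neurons differentiated from mouse embryonic stem cells and collected at day 21 in culture. WT neurons (line label Daam1-MIC_WT) were compared with KO neurons that lack the microexon of Daam1, a formin that nucleates actin filaments. Each genotype was given water as vehicle or 10 µM of the ROCK inhibitor Y-27632 for 2 h. The 4 groups (WT vehicle, KO vehicle, WT inhibitor, KO inhibitor) hold 3 libraries each. Each of 3 labelled cell lines per genotype gave 1 vehicle and 1 inhibitor library, and the labels do not say whether a line is a single clone. The main p-values come from 1 fit with a spread shared by all 12 libraries. That fit leaves out the pairing by line and treats the libraries of a line as independent. Only where the libraries of a line are summed is the line itself the replicate. Replicates within a line were not made. The series text names adult hippocampus instead, which no sample label does, so the labels of the samples were used.

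Astrocytes are glial cells that arise from radial glia after neurons have been born, and cultures started from neural progenitors can make both. They take up glutamate from synapses and return it as glutamine, buffer water and potassium, join into networks through gap junctions, and supply neurons with lipid carried on apolipoprotein E. Several of the 10 genes are also used by radial glia and other cells, and Aldoc and Slc1a2 have RNA in some neurons, so none of them alone identifies an astrocyte. In bulk RNA, fewer cells of a type and less RNA per cell cannot be told apart.

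Libraries are named by treatment and line below, treated for inhibitor and untreated for vehicle. Library totals ran from 23253566 to 35012561 counts. One library stood apart from the rest: treated KO line 3 lay at 163 on the first principal component of log2 CPM, against -73.8 to 68.1 for the other 11, and its median correlation with the others was 0.854 against 0.953 to 0.986. Untreated WT line 2 (68.1) and treated WT line 3 (60.3) came next on that component. Summed over 10 neuron markers, the level was 4162 to 6032 CPM in the 11 libraries and 1420 CPM in the library apart. Neuron markers were thus found in all 12 libraries and least in that one. The sum does not tell glutamatergic from other neurons. In the 11 libraries Gad1, the GABA-synthesizing enzyme, was at 159 to 260 CPM beside 242 to 424 for Slc17a6, a vesicular glutamate transporter. With water, Daam1 averaged 167 ± 14.7 CPM over the WT lines and 166 ± 14.2 over the KO lines, and with inhibitor 157 ± 20.5 and 141 ± 64.2 (mean ± SD, n = 3). Counts over a whole gene do not check the deletion of a microexon. Where comparisons rest on the library apart, values without it are given beside them. The main fit shares 1 estimate of spread over all 12 libraries. That library therefore also enters the standard errors and p-values of comparisons between other groups. CPM are counts set to 1 common depth by TMM factors, and cRPKM are the authors' length-scaled values.

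The abundance of the 10 genes was first compared per length, as the median cRPKM of the 11 libraries other than treated KO line 3. Aldoc was the most abundant at 152 cRPKM, and its lowest value (89.8) was above the highest of any other. Glul (42.8), Apoe (37.1) and Gfap (34.3) followed, and their ranges over the 11 libraries overlapped (34.6 to 86.7, 19.7 to 87.1 and 15.8 to 73.0 cRPKM). Slc1a2 was at 10.3 and Gja1 at 7.98 cRPKM, with Gja1 ranging from 1.24 to 34.7 on both sides of Slc1a2. S100b (1.47), Aldh1l1 (1.41), Sox9 (0.90) and Aqp4 (0.58) were low, and neighbours in that order overlapped in range. In the library apart the order was different: Apoe led at 406 cRPKM, then Gfap at 244, Glul at 196 and Gja1 at 80.3, with Aldoc at 48.2. Aldh1l1 was at 10.4, Aqp4 at 8.91, Sox9 at 8.33, Slc1a2 at 6.60 and S100b at 5.15 cRPKM there.

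**Figure D1:**
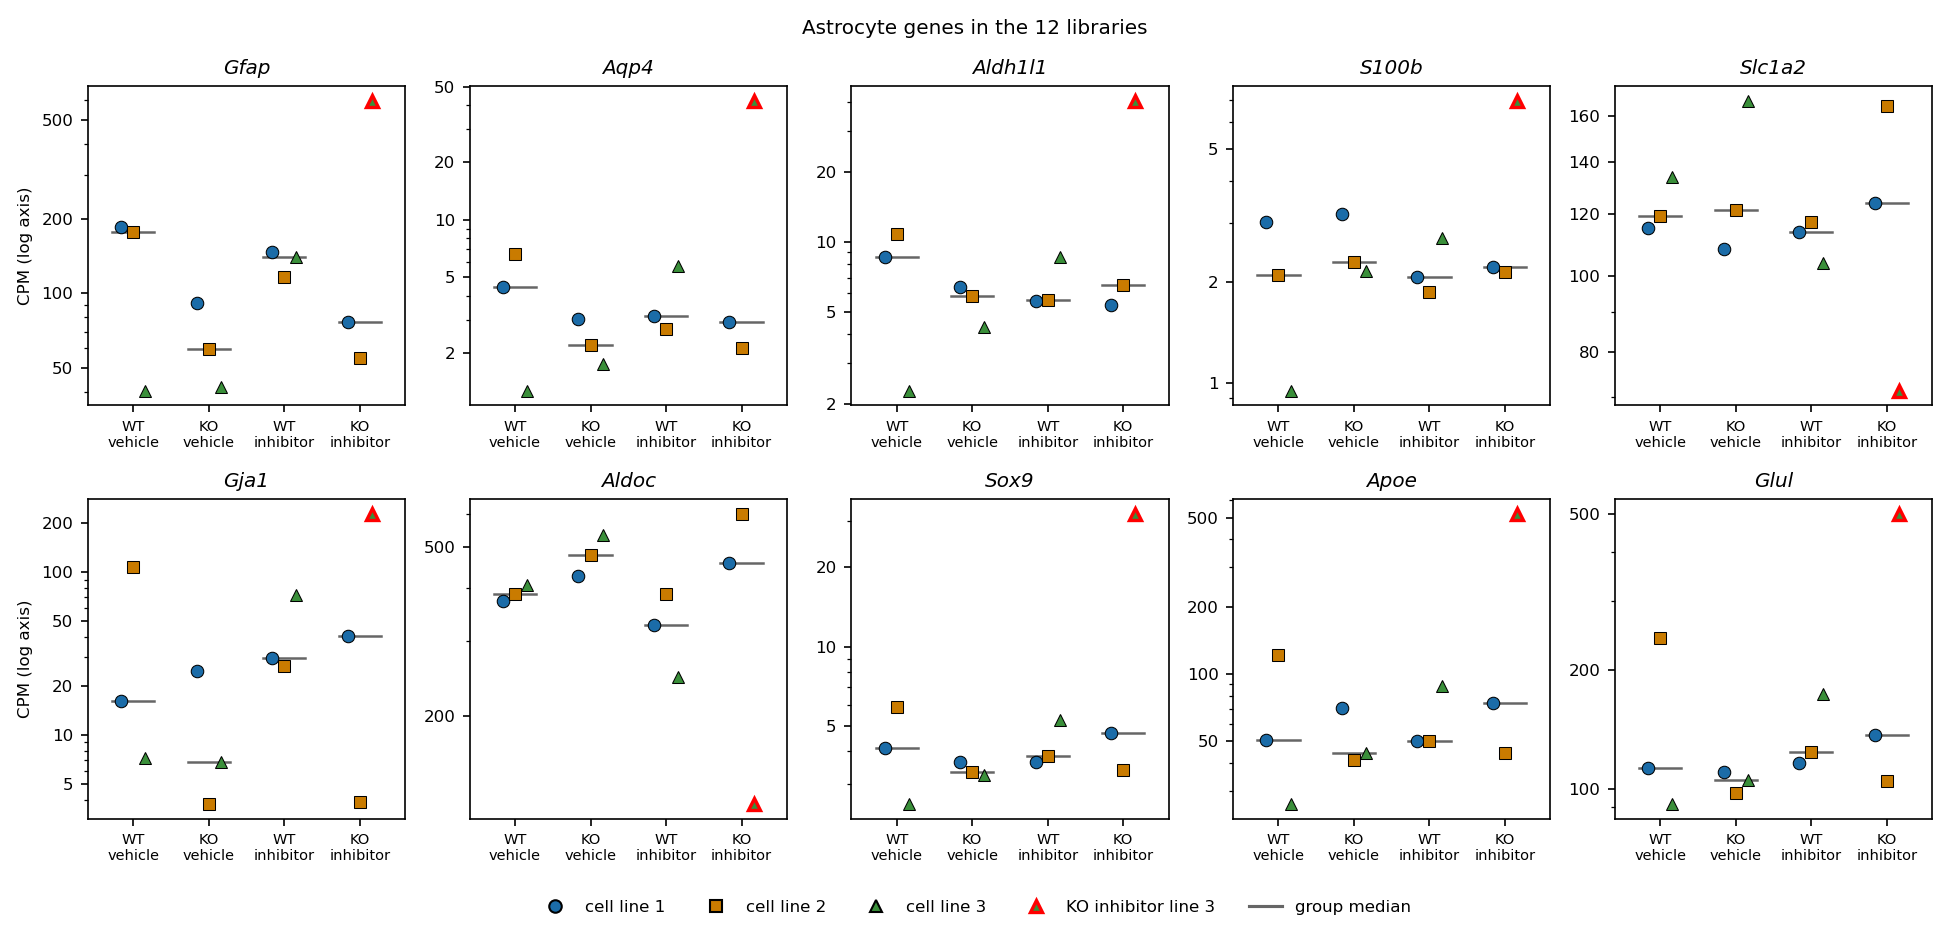
CPM of the 10 astrocyte genes in each library (log axis), 1 panel per gene, with points for the 3 lines of each of the 4 groups, a bar at each group's median and treated KO line 3 marked apart. That library is the highest of the 12 for 8 genes (Gfap 598 CPM, next 185) and the lowest for Aldoc (124 CPM) and Slc1a2 (71.3 CPM).

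Gfap encodes the intermediate filament protein used most often to stain astrocytes (ENSMUSG00000020932, chromosome 11, 102887336 to 102900912, minus strand, in GENCODE M21 coordinates). Gfap with water was at 185, 177 and 40.5 CPM for lines 1 to 3 of WT and at 91.7, 59.8 and 42.0 for those of KO. Gfap with inhibitor was at 146, 117 and 140 CPM for the WT lines and at 76.3, 54.8 and 598 for the KO lines. The 5 KO libraries other than the one apart lay at 42.0 to 91.7 CPM, below 5 of the 6 WT libraries, while untreated WT line 3 (40.5 CPM) was below them all. With inhibitor, KO lines 1 and 2 did not overlap with the 3 WT lines, and the KO line 3 was 3.23-fold above the highest of the other 11 libraries.

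Aldh1l1 (ENSMUSG00000030088, chromosome 6, 90486427 to 90600203, plus strand), a folate-metabolism enzyme used as a pan-astrocyte marker, was low outside the library apart. Aldh1l1 with water was at 8.60, 10.7 and 2.29 CPM for lines 1 to 3 of WT and at 6.37, 5.84 and 4.31 for those of KO. Aldh1l1 with inhibitor was at 5.55, 5.62 and 8.63 CPM for the WT lines and at 5.34, 6.51 and 40.5 for the KO lines. S100b (ENSMUSG00000033208, chromosome 10, 76253853 to 76261159, plus strand), a calcium-binding protein, was the least counted of the 10, with 29 to 219 counts per library. S100b with water was at 3.03, 2.10 and 0.947 CPM for lines 1 to 3 of WT and at 3.18, 2.29 and 2.16 for those of KO. S100b with inhibitor was at 2.07, 1.87 and 2.71 CPM for the WT lines and at 2.22, 2.14 and 6.97 for the KO lines. For both genes the library apart was the highest and untreated WT line 3 the lowest, and the groups overlapped in every comparison. The S100b value is uncertain: the span of the gene Dip2a, at 82.1 CPM on average, covers part of an S100b exon on the opposite strand. Whether an exon of Dip2a lies there was not examined, and the sources used here do not state whether counting used the strand.

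Aqp4 and Gja1 act at the membrane, Aqp4 as the water channel of astrocyte endfeet and Gja1 as connexin 43, the main gap junction protein of astrocytes, which fibroblasts and radial glia also make. Aqp4 is ENSMUSG00000024411, and Gja1 is ENSMUSG00000050953, chromosome 10, 56377330 to 56402513, plus strand. Aqp4 with water was at 4.44, 6.66 and 1.27 CPM for lines 1 to 3 of WT and at 3.04, 2.21 and 1.76 for those of KO. Aqp4 with inhibitor was at 3.12, 2.70 and 5.75 CPM for the WT lines and at 2.91, 2.14 and 42.2 for the KO lines. Its values rest on 39 to 1328 counts, and Aqp4 had the greatest distance of the 10 between the library apart and the median of the others, 14.5-fold. Gja1 with water was at 16.1, 108 and 7.25 CPM for lines 1 to 3 of WT and at 24.8, 3.76 and 6.86 for those of KO. Gja1 with inhibitor was at 29.5, 26.7 and 72.5 CPM for the WT lines and at 40.4, 3.87 and 229 for the KO lines. It was the most variable of the 10 among the other 11 libraries, with a 28.8-fold range and a coefficient of variation of 106%. Its highest values among the 11 were in untreated WT line 2 and treated WT line 3, and both libraries of KO line 2 were its lowest.

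Slc1a2 and Glul are consecutive steps of glutamate clearance: Slc1a2 (GLT-1) carries glutamate into astrocytes, and Glul, glutamine synthetase, turns it into glutamine. Slc1a2 is ENSMUSG00000005089, chromosome 2, 102658659 to 102790784, plus strand, and Glul is ENSMUSG00000026473, chromosome 1, 153899944 to 153909723, plus strand. Slc1a2 with water was at 115, 119 and 134 CPM for lines 1 to 3 of WT and at 108, 121 and 168 for those of KO. Slc1a2 with inhibitor was at 114, 117 and 104 CPM for the WT lines and at 124, 165 and 71.3 for the KO lines. It was the steadiest of the 10 genes, with a 1.61-fold range among the 11 libraries and its lowest value in the library apart, 1.67-fold under the median of the others. Glul with water was at 113, 242 and 91.7 CPM for lines 1 to 3 of WT and at 110.5, 97.8 and 106 for those of KO. Glul with inhibitor was at 116, 124 and 174 CPM for the WT lines and at 137, 105 and 499.6 for the KO lines. The enzyme was 4.43-fold over the median of the others in the library apart, where the transporter was lowest.

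Aldoc and Apoe belong to metabolism and lipid supply. Aldoc (ENSMUSG00000017390, chromosome 11, 78322968 to 78327781, plus strand) is the brain aldolase of glycolysis, which astrocytes and some neurons express. Aldoc with water was at 373, 388 and 408 CPM for lines 1 to 3 of WT and at 428, 480 and 533 for those of KO. Aldoc with inhibitor was at 328, 388 and 247 CPM for the WT lines and at 460, 599.7 and 124 for the KO lines. In vehicle the 3 KO libraries all lay above the 3 WT libraries, and with inhibitor KO lines 1 and 2 lay above the 3 WT lines while line 3 lay below them. Apoe (ENSMUSG00000002985, chromosome 7, 19696109 to 19699188, minus strand) is the main lipid carrier protein of the brain. Apoe with water was at 50.7, 122 and 26.3 CPM for lines 1 to 3 of WT and at 70.5, 41.2 and 44.6 for those of KO. Apoe with inhibitor was at 50.2, 50.02 and 88.6 CPM for the WT lines and at 74.0, 44.6 and 520.0 for the KO lines. The Apoe groups overlapped in every comparison, and its value in the library apart was 10.4-fold over the median of the others.

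Sox9 (ENSMUSG00000000567, chromosome 11, 112782224 to 112787760, plus strand) is a transcription factor that drives the switch of progenitors to glia. Sox9 with water was at 4.09, 5.88 and 2.51 CPM for lines 1 to 3 of WT and at 3.62, 3.33 and 3.26 for those of KO. Sox9 with inhibitor was at 3.65, 3.82 and 5.25 CPM for the WT lines and at 4.69, 3.38 and 32.0 for the KO lines. Outside the library apart its range was only 2.34-fold, and within it Sox9 was 8.78-fold over the median of the others.

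The regions upstream of 3 of the genes are shown because they are among those that stood highest in the same library, Gja1 and Apoe with a motif match and Gfap without one. They are the 250 bases before the RefSeq start site (GRCm38.p6), 5′ to 3′ on the strand of the gene, with motif matches in capitals.
Gfap, chr11:102897201-102897450, minus strand: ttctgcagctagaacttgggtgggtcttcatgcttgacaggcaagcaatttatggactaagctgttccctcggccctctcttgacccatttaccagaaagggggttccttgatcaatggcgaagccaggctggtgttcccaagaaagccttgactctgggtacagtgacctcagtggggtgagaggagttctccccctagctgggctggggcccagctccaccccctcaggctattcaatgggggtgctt
Gja1, chr10:56377050-56377299, plus strand: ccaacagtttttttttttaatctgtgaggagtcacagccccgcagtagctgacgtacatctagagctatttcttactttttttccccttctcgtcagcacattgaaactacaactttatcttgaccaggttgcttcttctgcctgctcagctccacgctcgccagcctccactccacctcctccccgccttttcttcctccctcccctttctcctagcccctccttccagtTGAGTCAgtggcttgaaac
Apoe, chr7:19699189-19699438, minus strand: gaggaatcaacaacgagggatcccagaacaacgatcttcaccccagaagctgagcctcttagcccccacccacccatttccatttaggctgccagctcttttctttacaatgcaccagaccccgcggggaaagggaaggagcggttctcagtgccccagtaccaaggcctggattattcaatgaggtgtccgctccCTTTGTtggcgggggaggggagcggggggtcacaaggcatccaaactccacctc
Of the 10 genes, 8 were matched in the table of promoters, some with several starts, and Aqp4 and Sox9 were not used here. Motifs searched on both strands were the NFI motif TTGGCA, the STAT site TTCNNNGAA, the SOX core ACAAAG and the AP-1 site TGANTCA, factors known to act on glial genes. Over 32851 RefSeq promoters, 250-base windows held them in 12.28%, 7.02%, 16.46% and 6.749% of cases. The capitals in Gja1 are an AP-1 match starting at -19 from the start site, and those in Apoe are the SOX core on the opposite strand at -54. An NFI match was found at -19 in S100b, at -57 in another Apoe window and at -146 in 1 Aldoc window, and 2 STAT matches were found at -124 and -83 in the other Aldoc window. No match was found in the windows of Gfap, Aldh1l1, Glul and Slc1a2. A match is a string of letters and was not tested for binding.

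**Figure D2:**
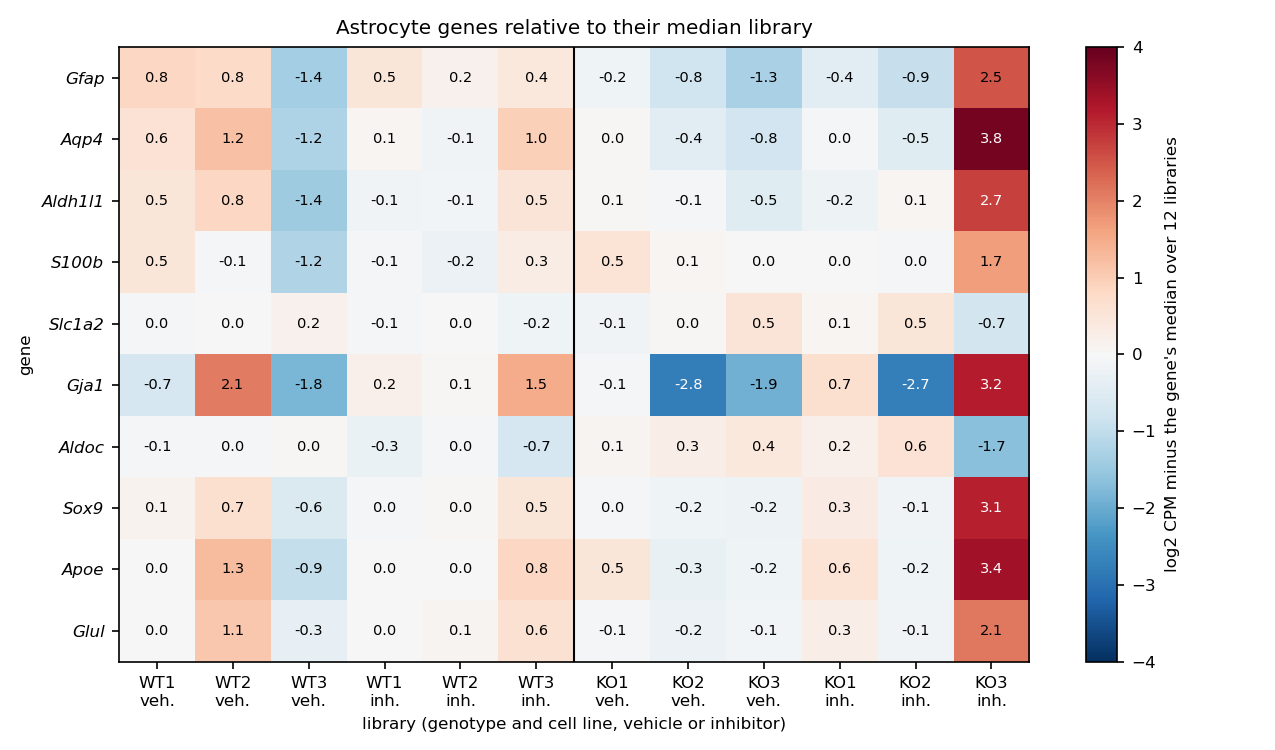
Log2 CPM of each gene minus its median over the 12 libraries, genes in rows and libraries in columns, WT on the left and KO on the right. Treated KO line 3 is above the others for 8 genes and below for Aldoc and Slc1a2, and untreated WT line 2 and treated WT line 3 are the next highest for most of the 8.

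Across the 10 genes, treated KO line 3 was above all 11 other libraries for 8 and below all 11 for 2. Among all 15443 genes tested, 38.4% were above and 39.0% below all 11 in that library, so a position outside the others was common there. Of the 10, 8 were more than 2-fold above the median of the other libraries there and 1 more than 2-fold below. Of all genes tested, 3489 (22.6%) were more than 2-fold above and 3369 more than 2-fold below. The median of the signed distances was 2.74 on the log2 scale for the 10 and -0.04 for all genes, which went both ways in like numbers. Among the same 8 genes, untreated WT line 2 was in the highest 3 of 12 for 7 and treated WT line 3 for 6. Untreated WT line 3 was in the lowest 3 for 7. Next came untreated KO line 3 and treated KO line 2, for 5 each, and untreated KO line 2 for 4. The share of all genes at such ranks was not counted. Aldoc ran the other way in these libraries, ranking 8th and 11th in untreated WT line 2 and treated WT line 3. The high and low libraries thus came from both genotypes and both treatments.

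In vehicle, KO neurons were compared with WT neurons to see whether the microexon deletion goes with a different level of astrocyte RNA. None of the 10 genes was called by edgeR at an adjusted p below 0.05, beside 0.0% of all 15443 genes. Gfap had a log2 fold change of -1.06 ± 0.86 (SE), Gja1 of -1.89 ± 1.37 and Aqp4 of -0.82 ± 1.03. Glul (-0.51), Aldh1l1 (-0.39), Apoe (-0.35) and Sox9 (-0.29) were also lower in KO on average, while S100b (0.33), Aldoc (0.30 ± 0.44) and Slc1a2 (0.11) were higher. The edgeR adjusted p was 0.999 for each of the 10 and none had an unadjusted p below 0.05. The median of the 10 was -0.37, against -0.01 over all genes tested. Mesenchymal markers were lower in the same KO libraries, summing to 34.4 to 109 CPM against 111 to 1122 CPM in WT, and their part in the values of the 10 genes was not tested. Aldoc was the only one of the 10 whose groups did not overlap, higher in KO, as were 7.62% of all genes, and none was lower without overlap, as were 4.9% of all genes. Leaving out untreated WT line 2 turned the direction of 5 genes and brought Apoe to 0.43 and Gja1 to 0.01.

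With inhibitor, all 10 genes had a positive fold change in KO against WT, and none was called by edgeR (0.0% of all genes). A positive fold change was found for 49.9% of all genes tested. Aqp4 was at 2.03 ± 1.05, Apoe at 1.76 ± 0.87, Sox9 at 1.65 ± 0.74, Aldh1l1 at 1.40 ± 0.77 and Gja1 at 1.09 ± 1.33 (log2, SE). Gfap was at 0.86, Glul at 0.84, S100b at 0.77, Aldoc at 0.30 and Slc1a2 at 0.11. Sox9 alone had an unadjusted p below 0.05 (0.049), and edgeR adjusted p-values ran from 0.856 to 0.913. Among all 15443 genes tested, 204 were higher and 336 lower in KO at an unadjusted edgeR p below 0.05. No gene of the 10 had groups without overlap, where 3.51% of all genes were higher and 7.03% lower in KO in that way. The median of the 10 was 0.97 with the library apart and -0.12 without it, and 8 of the 10 turned negative. Without it, 8946 of 15591 genes tested were negative.

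Without that library, Gfap was at -1.03 ± 0.58 (edgeR adjusted p = 0.573), close to its fold change in vehicle of -1.06. Aldoc was at 0.72 ± 0.18 (unadjusted p = 0.003, edgeR adjusted p = 0.481) and Slc1a2 at 0.37 ± 0.18 (adjusted p = 0.540). Among 15591 genes tested in that fit, 776 were higher and 705 lower in KO at an unadjusted edgeR p below 0.05. KO lines 1 and 2 lay below the 3 WT lines in Gfap, as did 19.6% of all genes, and above them in Aldoc and Slc1a2, as did 17.1% of all genes. Over both treatments, Aldoc was at 428 to 599.7 CPM in the remaining 5 KO libraries and at 247 to 408 CPM in the 6 WT libraries, chosen for mention after its values were seen. The same separation, KO above WT, was found for 2.69% of all genes. In the library apart Aldoc was at 124 CPM, below every WT library.

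**Figure D3:**
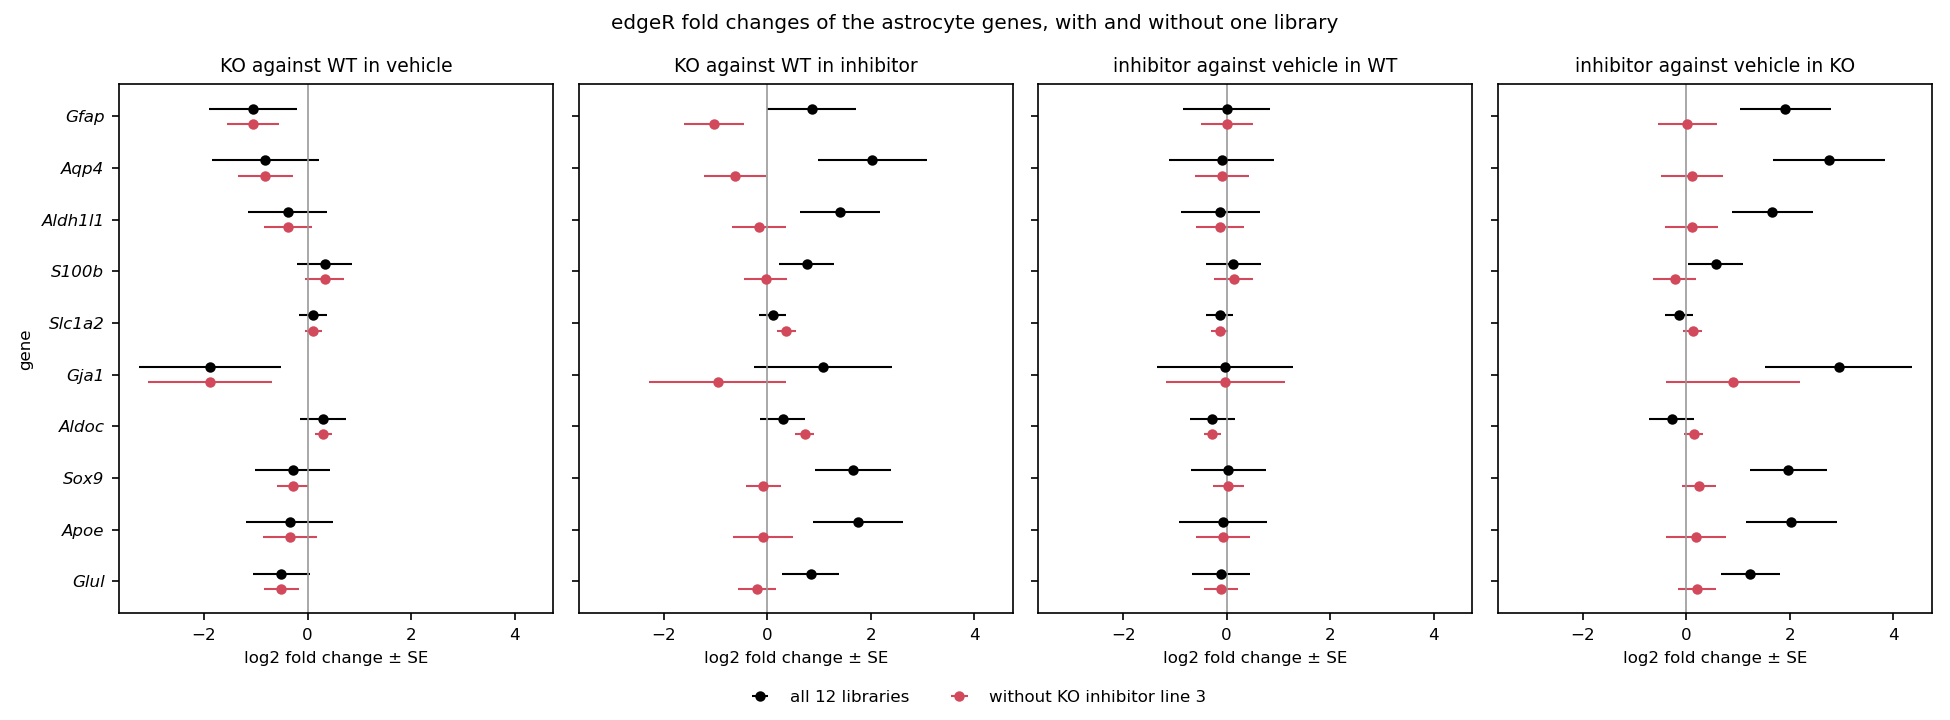
Log2 fold change of each gene (edgeR, points) in 4 comparisons, with bars of 1 SE, from all 12 libraries and without treated KO line 3. In inhibitor the KO against WT values lie on the positive side for all 10 genes with the library and on the negative side for 8 without it, and no gene passed the threshold in either.

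The inhibitor was compared with vehicle in WT neurons to ask whether 2 h of ROCK inhibition goes with a different level of these genes. Fold changes ran from -0.28 (Aldoc) to 0.13 (S100b) on the log2 scale, with standard errors of 0.27 to 1.32. Gfap was at 0.00 ± 0.85, the means being 134 ± 81.3 CPM in vehicle and 134 ± 15.5 with inhibitor (SD, n = 3). Fitted without treated KO line 3, which shares the estimate of spread, Gfap was at 0.00 ± 0.50. The standard errors of the 10 then ran from 0.16 to 1.15. None of the 10 was called by edgeR (0.0% of all genes), each with an adjusted p of 1.00 and none with an unadjusted p below 0.05. None had groups without overlap, against 3.04% of all genes higher and 2.93% lower with inhibitor. The median of the 10 was -0.08, against 0.01 over all genes.

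In KO neurons the inhibitor group was higher on average for 8 of the 10, and for 48.2% of all genes tested. Gja1 was at 2.94 ± 1.42, Aqp4 at 2.75 ± 1.08, Apoe at 2.03 ± 0.88, Sox9 at 1.97 ± 0.75, Gfap at 1.91 ± 0.87, Aldh1l1 at 1.66 ± 0.78, Glul at 1.24 ± 0.56 and S100b at 0.57 ± 0.53 (log2, SE). Slc1a2 was at -0.14 and Aldoc at -0.28. None was called by edgeR (0.0% of all genes), with adjusted p-values of 0.474 to 0.741, and Sox9 (0.025), Aqp4 (0.029) and Apoe (0.044) had an unadjusted p below 0.05. Among all 15443 genes tested, 926 were higher and 162 lower with inhibitor at an unadjusted edgeR p below 0.05. No groups were without overlap, against 3.19% of all genes higher and 5.65% lower with inhibitor. Without the library apart, Gfap was at 0.02 ± 0.56, Aqp4 at 0.11 ± 0.59, Apoe at 0.19 ± 0.58, Sox9 at 0.25 ± 0.33 and Gja1 at 0.90 ± 1.29. Aldh1l1 was then at 0.11 ± 0.52 and Glul at 0.21 ± 0.37, while S100b (-0.22), Slc1a2 (0.13) and Aldoc (0.14) turned sign, and the edgeR adjusted p was 1.00 for all 10.

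Set line by line, the difference between inhibitor and vehicle depended on which line was read. The 8 genes that lead in treated KO line 3 are by that choice higher there than in the vehicle library of the same line. Only the size of the difference is informative, 1.69 to 5.06 on the log2 scale. Gfap was 14.2-fold, Gja1 33.3-fold and Aqp4 23.9-fold over that vehicle library. The share of all genes higher or lower within a line was not counted. WT line 3 was also higher for all 8, by 0.93 to 3.32. WT line 2 was lower for all 8, by -2.02 to -0.17. KO line 2 kept all 8 between -0.13 and 0.16, and KO line 1 between -0.52 and 0.70, with 4 up and 4 down. Over the 6 lines, Gja1 and Glul were higher with inhibitor in 5, Sox9 and Apoe in 4, Aldh1l1 and Aldoc in 3, and Gfap, Aqp4, S100b and Slc1a2 in 2. No gene of the 10 differed in the same direction in all 6 lines.

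**Figure D4:**
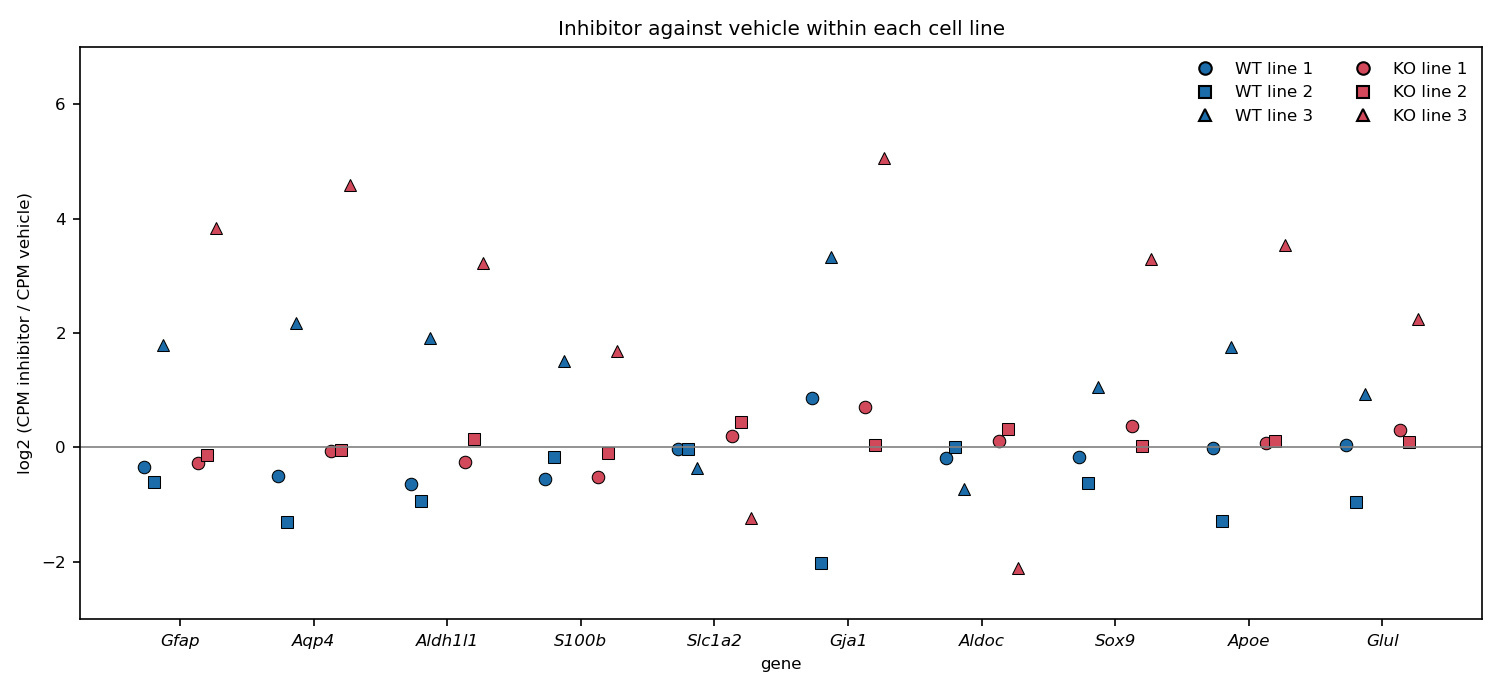
Log2 CPM difference, inhibitor minus vehicle, of each gene in each of the 6 cell lines (points), with 0 marked. KO line 3 and WT line 3 lie above 0 for the 8 genes other than Aldoc and Slc1a2, WT line 2 lies below 0 for those 8, and KO line 2 lies near 0. The 8 are the genes highest in treated KO line 3, so their side of 0 in that line is fixed by this choice.

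The interaction of genotype and treatment asks whether the inhibitor difference is itself different in KO and WT. It ran from -0.01 (Aldoc) to 2.97 ± 1.91 (Gja1), and none of the 10 was called by edgeR (0.0% of all genes; adjusted p 0.808 to 0.997). Without the library apart, Gja1 was at 0.93 ± 1.73. Aqp4 was at 2.85 ± 1.46 with it and at 0.20 ± 0.79 without it, and Gfap at 1.91 ± 1.21 and 0.02 ± 0.75. When both libraries of a line were summed and 3 KO lines were set against 3 WT lines, fold changes ran from 0.13 (Slc1a2) to 1.32 (Aqp4), again with none called (0.0% of 16090 genes; edgeR adjusted p 0.998 for each). Without KO line 3, Aldoc was at 0.50 ± 0.12 (unadjusted p = 0.006, adjusted p = 0.315), Aqp4 at -0.61 ± 0.23 (0.036, adjusted p = 0.367) and Gfap at -0.92 ± 0.35 (0.054, adjusted p = 0.390). DESeq2 called none of the 9 genes it gave a p-value for in each of the 6 comparisons; it gave none for Gfap in 5 of them and none for Aqp4 in the line sums.

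Other genes of astrocytes and their origin were read in the same way, in lists chosen with earlier results known. No gene of any list was called by edgeR in any comparison. In the library apart, 38.4% of all genes tested were above all 11 others and 39.0% below, to be set beside the list counts that follow. Of 23 tested genes among 28 further astrocyte genes, 16 were above all 11 other libraries in the library apart and 3 below, with a median distance of 2.41 on the log2 scale. Clu, a secreted lipid-binding chaperone, was at 59.6 to 437 CPM in the 11 libraries and 1049 in the library apart, and Mfge8, a secreted phagocytosis bridge, at 6.45 to 229 and 809. Atp1b2, a sodium pump subunit, was at 286 to 364 and 153 CPM, and Sparcl1, a synapse-promoting secreted protein, was at 194 within its range of 131 to 233. This list had an even split in KO against WT in vehicle (12 positive, 11 negative, median 0.06).

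Regulators of gliogenesis had 17 of 19 genes above all 11 libraries and 2 below, with a median of 2.34. Id4, an inhibitor of helix-loop-helix factors, was at 118 to 162 CPM and 82.1 in the library apart, and Smad1, of BMP signalling, at 35.2 to 41.9 and 28.7. Stat3, which drives astrocyte genes under cytokines, was at 46.2 to 83.6 CPM and 118, and Il6st, the shared receptor subunit of those cytokines, at 85.5 to 148 and 169. Of 12 tested genes of reactive astrocytes, 8 were above and none below (median 2.27), among them Vim, an intermediate filament partner of Gfap, at 29.3 to 266 CPM and 578, and Serpina3n at 11.5 to 21.3 and 71.3. S100a10 and Hspb1 were at 87.1 and 37.3 CPM there, against at most 36.1 and 14.6 elsewhere. In KO against WT in vehicle, 11 of these 12 had a negative fold change (median -1.49) and 14 of the 19 regulators did (median -0.57), none called. So did 7985 of all 15443 genes tested (median -0.01). All 8 mesenchymal markers were negative in that comparison as well, with a median of -2.88 and 6 at an unadjusted edgeR p below 0.05. Among all 15443 genes tested, 221 were lower and 86 higher in KO at that unadjusted p. With inhibitor 7 of the 8 mesenchymal markers were negative (median -2.58), against 7734 of all 15443 genes tested. Without the library apart all 8 were (median -2.62), against 8946 of 15591 genes, and again none was called by edgeR. Whether the lower values of the reactive and regulator lists go with those of the mesenchymal markers was not tested.

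Genes of cholesterol and lipid transport around Apoe were 6 above and 3 below of 10 (median 2.08), with Lrp1, an Apoe receptor, at 202 to 297 CPM and 96.3 in the library apart, Abcg1, a cholesterol exporter, at 23.2 to 45.1 and 18.9, and Nr1h2, a sterol-sensing receptor, at 39.1 to 51.9 and 59.1. Genes of the glutamate and glutamine cycle were near the shares of all genes tested, with 5 above and 4 below of 12 (median 0.32). These are 41.7% and 33.3%, against 38.4% and 39.0% of all genes. Slc17a6, the vesicular glutamate transporter of neurons, was at 51.7 CPM there against 242 to 424, and Gad1, the GABA-synthesizing enzyme, at 86.7 against 159 to 260. Slc38a1, a glutamine carrier, was at 424 CPM against 301 to 418, and Glud1, glutamate dehydrogenase, at 213 against 133 to 159. Among close paralogs of the 10 genes, 7 of 12 were above and 4 below: Aldoa, the ubiquitous aldolase, was at 367 CPM against 510 to 866, Slc1a1, the neuronal glutamate carrier, at 27.5 against 90.4 to 126, and S100a1 at 43.7 against 0.520 to 10.0.

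Markers of other cells also stood apart in these libraries, and their part in the levels of the 10 genes was not tested. Neuron markers were below all 11 libraries in the library apart for 9 of 10 (Snap25 at 310 CPM against 676 to 1384, Stmn2 at 268 against 733 to 1018, Tubb3 at 175 against 518 to 745, Nefm at 190 against 422 to 637). Radial glia markers were above for 9 of 10, summing to 571 CPM against 33.8 to 130, with Slc1a3 at 272 against at most 31.8, Fabp7 at 175 against at most 26.9, Hopx at 38.6 against at most 17.6 and Sox2 at 20.4 against at most 2.64. Oligodendrocyte-lineage markers were above for 4 of 7 tested and below for 1, summing to 574 CPM against 33.8 to 183. Of that sum Pdgfra, which mesenchymal cells also express, was 509. Olig1 was at 24.5 against at most 4.75 and Cnp at 18.8 against at most 12.6. The myelin gene Mbp was at 5.18 against 9.70 to 14.9. At most 3 counts in every library were found for 2 of the 10 markers.

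Mesenchymal markers were highest in other libraries than the one apart: they summed to 1122 CPM in untreated WT line 2 and 755 in treated WT line 3, the next highest for most of the 8 genes, and to 77.0 in the library apart, within the 34.4 to 1122 of the other 11. Endothelial markers summed to 165 CPM in the library apart against 2.46 to 65.6, with Tek at 131 and Pecam1 at 0.254. Markers of ependyma and choroid plexus summed to 88.0 against 3.73 to 21.1, mostly from Ttr at 73.5. Markers of Schwann cells and neural crest were at 28.5 CPM, within the 13.04 to 37.7 of the others. Microglia, another source of Apoe RNA, had markers near 0: these summed to 13.3 CPM against 0.692 to 10.0, almost all from Csf1r at 12.9, with Aif1 at 0.0636, and 4 of the 8 had at most 3 counts in every library.

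**Figure D5:**
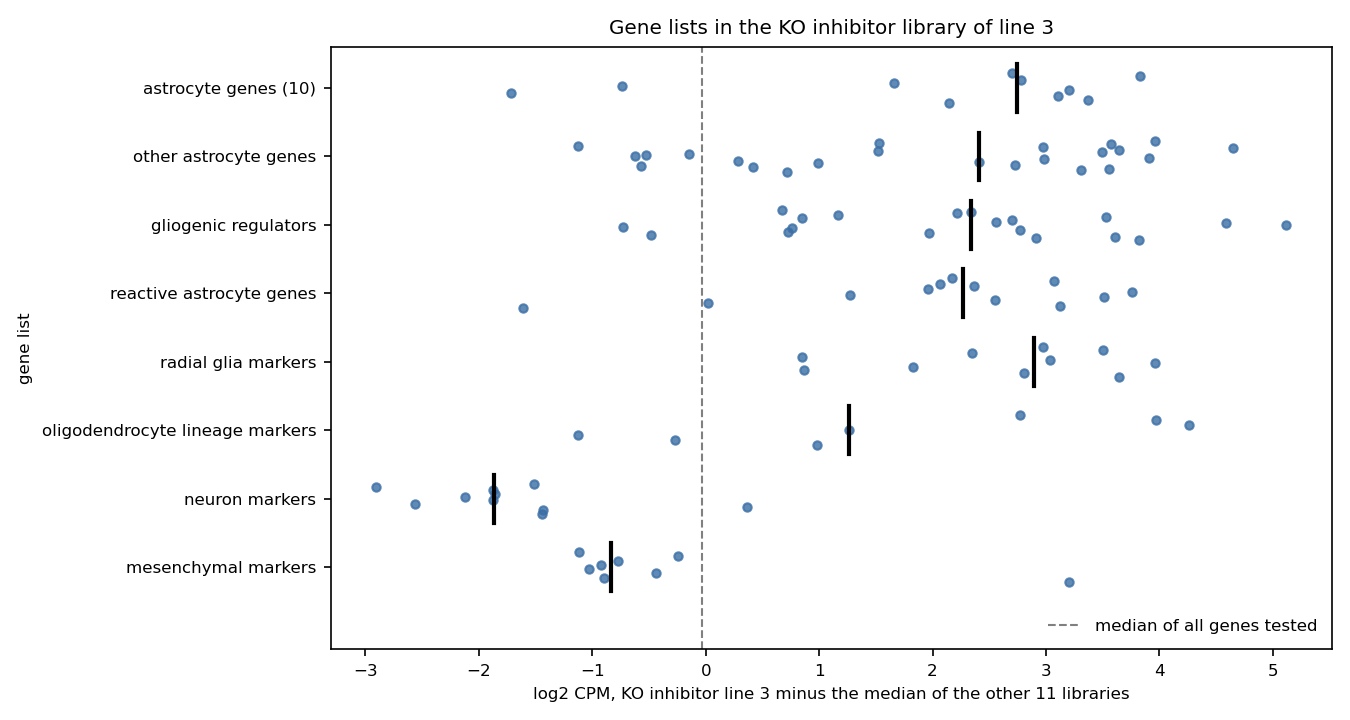
Log2 distance of each gene of a list from its median over the other 11 libraries, in treated KO line 3, for 8 of the lists, with a bar at each list's median and a dashed line at that of all genes tested. The lists of the 10 genes, other astrocyte genes, gliogenic regulators and radial glia have medians of 2.34 to 2.89 and neuron markers one of -1.87, against -0.04 for all genes tested.

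The genes most like 3 of the astrocyte genes in their pattern were found as those with the highest Pearson correlation of log2 CPM over the 12 libraries, which share their depth scaling and the library apart. For Gfap they were Id3 (0.97, and 0.95 without that library), Daam2 (0.97 and 0.96) and Krtcap3 (0.96 and 0.91). Id3 is a target of BMP signalling and Daam2 is the close relative of Daam1, whose microexon the KO neurons lack, at 2.35 CPM on average. For Aldh1l1 they included Cxcr4 (0.97 and 0.92) and S100a16 (0.97 and 0.92). For Aqp4 they were the ribosomal protein genes Rpl7a (0.99 and 0.97), Rpl6 (0.99 and 0.95) and Rpl14 (0.99 and 0.94). These were picked as the highest among 15443 genes, and are given as a description.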

How the data were processed

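Polyadenylated RNA of 12 libraries was sequenced with a stranded protocol, per the labels. Each deposited table holds, per Ensembl gene, a whole read count, which the authors left unnormalized, and a cRPKM value, an RPKM by length and library size whose correction the sources used here do not explain. The genome build was mm10, per the submitters' processing notes; the aligner, the counter, its annotation and its strand setting are not given in the sources used here. Of 36902 genes, 3342 were NA in every table. The members and lists were chosen with earlier results of these data known.

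Counts were tested with edgeR 4.0.16 in R 4.3.3 (TMM, filterByExpr by group, glmQLFit with robust estimation, quasi-likelihood F test, Benjamini-Hochberg over all genes tested, called at an adjusted p below 0.05), with 12 libraries in 1 fit. The fit kept 15443 genes and had a biological coefficient of variation of 0.411. For KO against WT over both treatments, the libraries of a line were summed (16090 genes, 0.360). A standard error is the fold change over the square root of F. Correlations used log2 CPM with a prior count of 2. Steps were tested on simulated data, where recovery was required only at a spread set below that of the fit. That check does not give the power at the fitted spread. Alternatives were DESeq2 1.42.0, other scalings and filters, limma 3.58.1 on log2(cRPKM + 0.1), blocks and left-out libraries.

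All 10 genes are named; of each other list, at most the 4 with the highest mean cRPKM and any that passed; and the 3 genes most like Gfap, Aqp4 and Aldh1l1, of which 1 for Aldh1l1 is not reported here. Gene coordinates are those of GENCODE M21. Vehicle and inhibitor libraries of a line are paired by the label of their cell line, a pairing that the main fit left out. Their deviations from the group means correlated at 0.41, -0.55 and -0.72 in WT lines 1 to 3 and at -0.19, 0.57 and -0.37 in KO lines 1 to 3. The labels do not say that WT and KO lines of the same number share anything. In inhibitor the deviations of same-numbered WT and KO libraries correlated at 0.38, 0.65 and 0.80, and in vehicle at -0.35, -0.65 and 0.17. Deviations from a mean of 3 libraries are not independent, and 1 library far from the rest can move all 3 values. These correlations therefore cannot show whether the numbers pair the samples. The fit with a block by number called none of the 10 genes in KO against WT, in vehicle or with inhibitor.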

Additional observations from a re-analysis of the deposited data

How the results depend on the processing

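None of the 10 genes was called by edgeR in any of 6 comparisons, or under any alternative that gave it a p-value, and unadjusted p-values below 0.05 numbered 0, 1, 0, 3, 0 and 0. Over the alternatives the adjusted p of the 10 ran from 0.164 to 1. Of 1200 values under alternatives, 118 turned sign, and 18 of the 60 fold changes never did. The number of all genes called was 0 in each comparison. DESeq2 called 11 for KO against WT in vehicle, 18 with inhibitor and 88 over line sums. Leaving out the 3 libraries that stand apart (treated KO line 3, untreated WT line 2 and treated WT line 3), chosen after seeing the data, gave 2 in vehicle and 1 with inhibitor, and no filter on low counts gave 2 over line sums. The cause was not tested for these counts. DESeq2 gave no p-value for Gfap in 5 comparisons and for Aqp4 over line sums, and these stay missing. Depth limits S100b, Aqp4, Aldh1l1, Sox9 and Gja1 most, with at least 29, 39, 70, 77 and 87 counts. Log2 fold changes that turned sign under a single alternative are the following. With DESeq2 these were Gfap -0.016 in the inhibitor difference in WT and Slc1a2 0.027 and Aldoc 0.024 in the interaction. With library totals in place of TMM these were Gfap -0.0047 in the inhibitor difference in WT and Slc1a2 0.048 and Aldoc 0.038 in the interaction. With RLE factors these were Gfap -0.016 in the inhibitor difference in WT and Slc1a2 0.027 and Aldoc 0.024 in the interaction. With no filter on low counts these were Gfap -0.025 and Sox9 -0.00072 in the inhibitor difference in WT and Slc1a2 0.044 and Aldoc 0.043 in the interaction. With at least 10 counts required in every library these were Slc1a2 0.0050 in the interaction. With limma on log2(cRPKM + 0.1) these were Gja1 -0.16 in KO against WT with inhibitor, Aqp4 0.056, Aldh1l1 0.081, Gja1 0.70 and Apoe 0.14 in the inhibitor difference in WT, Slc1a2 0.0023 in the interaction and Gfap -0.15 and Gja1 -0.63 in KO against WT over line sums. With the replicate block by number these were Gfap -0.097 and Sox9 -0.11 in the inhibitor difference in WT and Gfap -0.19 and Gja1 -0.25 in KO against WT over line sums. With the replicate block by cell line (the pairing) these were Aqp4 0.044, Aldh1l1 0.056, Gja1 0.75, Apoe 0.14 and Glul 0.0040 in the inhibitor difference in WT. With a fit of only the groups compared these were Gfap -0.015 in the inhibitor difference in WT. With the 3 libraries that stand apart left out these were Aldh1l1 0.031, Gja1 0.015, Sox9 0.050, Apoe 0.44 and Glul 0.038 in KO against WT in vehicle, Gfap -0.97, Aqp4 -0.17 and Gja1 -0.32 in KO against WT with inhibitor, Aqp4 0.016, Aldh1l1 0.026, S100b -0.023, Gja1 1.25, Apoe 0.36 and Glul 0.21 in the inhibitor difference in WT, S100b -0.21, Slc1a2 0.14 and Aldoc 0.16 in the inhibitor difference in KO and Gfap -0.17, S100b -0.18, Slc1a2 0.27, Gja1 -0.33, Aldoc 0.31 and Apoe -0.16 in the interaction. Leaving out 1 library at a time, or 1 line for the sums, turned 39 fold changes. For KO against WT in vehicle they ran from -0.81 to 0.015 in Aldh1l1, from -0.73 to 0.43 in Apoe, from -3.04 to 0.0061 in Gja1, from -0.76 to 0.031 in Glul, from -0.011 to 0.74 in S100b, from -0.096 to 0.24 in Slc1a2 and from -0.55 to 0.041 in Sox9. For KO against WT with inhibitor they ran from -0.15 to 1.82 in Aldh1l1, from -0.14 to 0.72 in Aldoc, from -0.086 to 2.23 in Apoe, from -0.61 to 2.54 in Aqp4, from -1.03 to 1.32 in Gfap, from -0.95 to 1.69 in Gja1, from -0.19 to 1.197 in Glul, from -0.025 to 1.04 in S100b, from -0.20 to 0.37 in Slc1a2 and from -0.071 to 2.11 in Sox9. For the inhibitor difference in WT they ran from -0.55 to 0.25 in Aldh1l1, from -0.46 to 0.68 in Apoe, from -0.52 to 0.40 in Aqp4, from -0.43 to 0.31 in Gfap, from -0.64 to 1.84 in Gja1, from -0.36 to 0.40 in Glul, from -0.21 to 0.54 in S100b and from -0.23 to 0.33 in Sox9. For the inhibitor difference in KO they ran from -0.72 to 0.14 in Aldoc, from -0.22 to 0.84 in S100b and from -0.44 to 0.13 in Slc1a2. For the interaction they ran from -0.44 to 0.42 in Aldoc, from -0.35 to 0.77 in S100b and from -0.31 to 0.26 in Slc1a2. For KO against WT over line sums they ran from -0.17 to 1.17 in Aldh1l1, from -0.14 to 1.58 in Apoe, from -0.61 to 1.79 in Aqp4, from -0.92 to 0.71 in Gfap, from -1.21 to 0.94 in Gja1, from -0.32 to 0.67 in Glul, from -0.0014 to 0.19 in Slc1a2 and from -0.13 to 1.497 in Sox9. The replicate block by cell line and the one by number changed no call among the 10 genes. The cause of a turned sign was not tested.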
